A study of Homo sapiens with 9 samples.

Results

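The 40 genes described here encode the actin cytoskeleton of the cell and the proteins that assemble, cut, bundle and anchor it. They were chosen by symbol, as the rows of the deposited count table whose gene name is 1 of 40 names, and all 40 were found among its 60656 genes. The rule itself uses no measured value, but the names were chosen with earlier results of these data known. The libraries come from RIVA, an established human line derived from a diffuse large B-cell lymphoma (DLBCL) of the activated type, infected with a doxycycline-inducible lentiviral vector (plvx-Tetone) and selected with puromycin. The vector was empty (labeled BCL10 wild type), or it carried BCL10 S136X, a truncation, or BCL10 R58Q, a missense mutant, of the adaptor BCL10 that links the B-cell receptor to NF-kB. Each group has 3 libraries, and all 9 received 200 ng/mL doxycycline for 24 h. Because every group was induced, the agent is shared by all of them, and libraries with induced wild-type BCL10 were not analysed here, so the mutation and a raised level of BCL10 cannot be told apart. BCL10 itself stood at 26.2 to 38.7 CPM (reads of a gene after every library is brought to the same depth by TMM factors) in the vector libraries, 345 to 488 in S136X and 309 to 357 in R58Q.

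Actin monomers join into filaments that push the membrane outward and, with motors, pull the cell together. Profilin and cofilin supply and recycle monomers, the Arp2/3 complex starts branches when activators of the WASP and WAVE families switch it on, formins and Ena/VASP proteins lengthen filament ends, and bundling proteins tie filaments into stiff arrays. Ezrin, moesin and related proteins fasten filaments to the membrane. In B cells this network shapes the spreading of the cell on antigen, the clustering of its receptors, and its migration.

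Total counts ranged from 28047713 to 33122267 per library, and the 40 genes together took 2.09% to 2.14% of them in the vector libraries, 2.32% to 2.52% in S136X and 2.53% to 2.65% in R58Q. ACTB alone took 0.676% to 0.694%, 0.848% to 0.961% and 0.998% to 1.12% in the same order. The 7 B-cell markers summed to 3396 to 4227 CPM, each present in every library, while the 6 myeloid markers summed to at most 0.62 CPM. The 6 T-cell markers summed to 6.57 to 11.6 CPM, the 5 platelet and erythroid markers to at most 0.438 CPM and the 5 epithelial markers to 41.4 to 71.3 CPM. The 5 fibroblast markers summed to 6.2 to 9.28 CPM for vector, 12.5 to 18.3 for S136X and 12.9 to 18.8 for R58Q, mostly COL1A1 and COL1A2, with COL3A1 at no more than 0.061 CPM and DCN at no more than 0.606 CPM. COL1A1 rose by 1.65 ± 0.26 (adjusted p = 0.00648) in S136X and 1.77 ± 0.25 (adjusted p = 0.00263) in R58Q, by edgeR's quasi-likelihood F test. Mean COL1A1 was 3.85, 12.1 and 13.2 CPM in vector, S136X and R58Q. The other fibroblast markers did not all rise with it. Mean COL1A2 was lower in the mutants, at 3.18, 2.16 and 1.35 CPM in that order, and PDGFRB stood at 0.714, 0.684 and 0.752. The part of these markers in the results was not tested. The names of the count columns carry 1 date for the vector and S136X libraries and a later one for the R58Q libraries, so that date and the R58Q construct cannot be told apart in any comparison with R58Q. In these bulk libraries, fewer cells that express a gene and less RNA per cell cannot be told apart either.

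Levels can be compared between genes only per length, here as counts per kilobase of exon, scaled to a common total per library. On that scale ACTB was the highest of the 40 in vector libraries at 6262 ± 206 (mean ± SD, n = 3), followed by the monomer-sequestering peptide TMSB10 at 4182 ± 199.5. PFN1, which encodes profilin, stood at 2249 ± 240.1 and the second cytoplasmic actin ACTG1 at 2086 ± 95, and these neighbors overlapped between libraries. MARCKSL1 (994 ± 69.8), the GTPase RHOA (825 ± 59.1), the leukocyte bundling protein LCP1 (554 ± 6.67), the Arp2/3 subunit ACTR2 (532 ± 6.99) and cofilin CFL1 (459.9 ± 40.5) came next. The lowest were ACTN1 (14.7 ± 2.72), ENAH (10.6 ± 1.65), ARPC1B (8.15 ± 0.415) and VIM (1.52 ± 1.21). ARPC1B and CDC42 share 72.6% and 89.2% of the 31-base words of their longest transcripts with other genes. How many reads this touched was not measured, so their places in the order are uncertain. Of the 39 pairs of neighbors in this order, 18 were apart in the vector libraries and 21 overlapped. VASP held place 26 at 107 ± 4.33 and FSCN1 place 35 at 24.5 ± 2.3, the genes with the highest folds among those that rose in R58Q. ACTB (place 1), LCP1 (place 7) and TAGLN2 (place 11) also rose by at least 1.5-fold in a mutant.

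**Figure D1:**
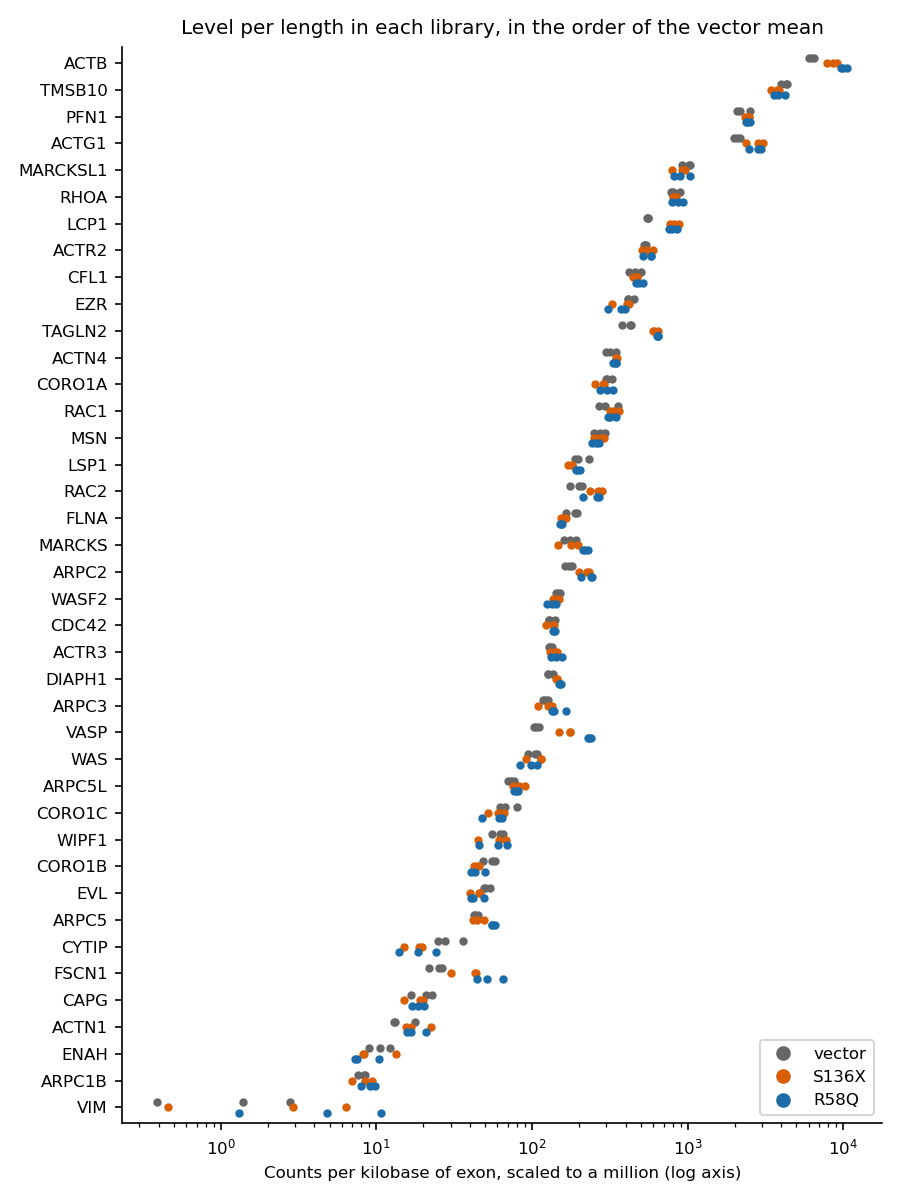
Level per exon length of the 40 genes in each of the 9 libraries (counts per kilobase of exon scaled to a common total, log axis), ordered by the mean of the vector libraries. ACTB, at 6262 in vector, and VIM, at 1.52, form the ends of the order.

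Comparing S136X with vector asks which of these genes differ when the truncated BCL10 is induced. By the quasi-likelihood F test of edgeR, with Benjamini-Hochberg adjustment over all genes tested and a limit of 0.05, 8 of the 40 rose and 2 fell, and 30 did not pass. Over all 15530 genes tested, 6.03% rose and 4.1% fell. With a change of at least 1.5-fold as well, 4 rose (VASP, FSCN1, LCP1 and TAGLN2) and 1 fell (CYTIP), against 2.05% and 1.82% of all genes. Changes are given as log2 fold changes ± standard error. The genes that rose also included ACTB, ACTG1, ARPC2 and RAC2, and CORO1B was the second that fell. The median log2 fold change of the 40 was 0.045, beside -0.02 over all genes. Without vector replicate 2 the counts were 3 higher and 0 lower, beside 2.07% and 0.98% of all genes. Without S136X replicate 3 they were 4 and 0, beside 3.24% and 1.36% of all genes. From 0 to 1 fell in each fit with 1 library left out. Of all genes called, 59.5% were higher, a share that became 47.4% with upper-quartile factors and 42.6% with total counts only, under both of which 8 of the 40 still rose and 2 fell.

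Against the same 3 vector libraries, 11 of the 40 rose in R58Q, 3 fell and 26 did not pass. Over all 15435 genes tested, 12.3% rose and 8.76% fell. With the 1.5-fold requirement 4 rose (VASP, FSCN1, ACTB and TAGLN2) and 1 fell (CYTIP), against 4.09% and 3.54% of all genes. Here ACTG1, LCP1, ARPC2, ARPC5, MARCKS, RAC2 and DIAPH1 also rose at smaller folds, and CORO1B and FLNA also fell. The median log2 fold change was 0.081, beside -0.028 over all genes. Without vector replicate 2, 7 rose and 0 fell, beside 5.47% and 2.91% of all genes. Also 0 fell without vector replicate 1, vector replicate 3 or R58Q replicate 3, with 1 without R58Q replicate 1. Of all genes, 6.81%, 4.18%, 3.78% and 7.36% fell in those fits, in that order. Of all genes called, 58.3% were higher, against 40.3% with upper-quartile factors and 43.1% with total counts only, under both of which 9 of the 40 rose and 6 fell. Both comparisons use the same vector libraries and are not independent of each other. Libraries with the same replicate number deviated together, though only weakly for vector replicate 2 (correlations 0.143 with S136X and 0.163 with R58Q). With the number as a block 12 rose and 7 fell in S136X, against 12.9% and 11.8% of all genes. In R58Q 14 rose and 8 fell with that block, against 18.2% and 17% of all genes.

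R58Q was also compared with S136X directly. VASP alone of the 40 passed, with a higher level in R58Q, and 0 were lower. Over 15195 genes, 0.349% were higher and 0.184% lower in R58Q, and 0.27% and 0.165% with at least 1.5-fold, which 0 of the 40 reached in either direction. At an unadjusted p under 0.05, 1668 of all genes differed in this comparison by edgeR. With the replicate block, 7 were higher (VASP, ACTB, ARPC3, ARPC5, FSCN1, MARCKS and VIM) and 3 lower (WAS, ENAH and EZR), while 7.84% of all genes were higher and 6.71% lower in that fit.

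**Figure D2:**
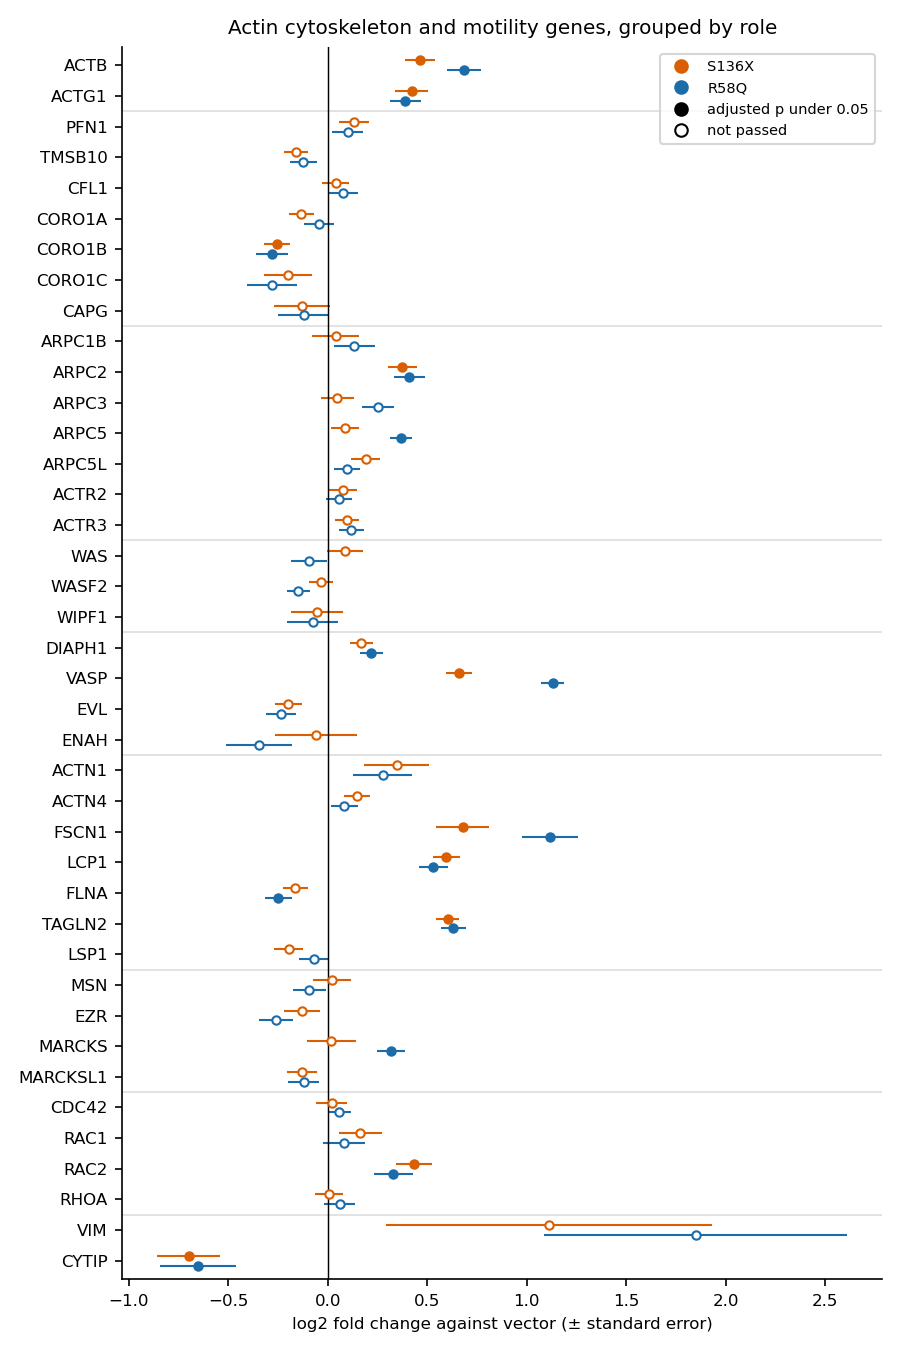
Log2 fold change against vector (point) with its standard error (bar) for each of the 40 genes in S136X (orange) and R58Q (blue), grouped by role, filled where the adjusted p was under 0.05. Most points lie near 0, while VASP, FSCN1, LCP1, TAGLN2 and both actins lie to the right in both mutants and CYTIP to the left. VIM lies farthest right in both, at 1.11 and 1.85, with wide errors and no call.

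Both cytoplasmic actins, the monomers from which filaments are built, rose in each mutant. ACTB (ENSG00000075624.17, chr7:5526409-5563902, minus strand, GRCh38) stood at 6699, 6639 and 6649.8 CPM with vector, 8749, 9363 and 9444 with S136X and 10876, 9996 and 11263 with R58Q. The 3 groups did not overlap, with vector lowest and R58Q highest. The change was 0.46 ± 0.077 (adjusted p = 0.00829) in S136X, a 1.38-fold rise, and 0.68 ± 0.085 (adjusted p = 0.00169) in R58Q, a 1.61-fold rise. R58Q exceeded S136X by 0.21 (95% interval 0.07 to 0.35, adjusted p = 0.322), which passed only with the replicate block (0.21, adjusted p = 0.00581). The call of ACTB in S136X was lost without vector replicate 2 (adjusted p = 0.0533).

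ACTG1 (chr17:81509971-81523847, minus strand) stood at 1840.3, 1864 and 1959 CPM with vector, 2264, 2631 and 2694 with S136X and 2305, 2596 and 2533 with R58Q. All mutant libraries lay above all vector libraries, and the mutants overlapped each other. Its change was 0.42 ± 0.084 (adjusted p = 0.017) in S136X and 0.39 ± 0.076 (adjusted p = 0.0105) in R58Q, and the mutants differed by -0.04 (95% interval -0.21 to 0.13, adjusted p = 0.946). The call of ACTG1 in S136X was lost without vector replicate 2 (adjusted p = 0.0897) and without S136X replicate 3 (adjusted p = 0.0656). The call of ACTG1 in R58Q was lost without vector replicate 2 (adjusted p = 0.0575). Of the 31-base words of the longest transcript, 22.9% for ACTB and 17.6% for ACTG1 also occur in other genes, among them pseudogenes and the other actin, and how many reads this touched was not measured.

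Of the 7 genes for monomer binding, turnover and capping, 1 fell in each comparison with vector and 6 did not pass. Over all genes, 4.1% fell in S136X and 8.76% in R58Q. The member that fell was CORO1B, a coronin that acts on Arp2/3 branches, with 90.9, 80.2 and 88.7 CPM with vector, 72.1, 73.6 and 71.9 with S136X and 70.9, 78.1 and 65.3 with R58Q. All mutant libraries lay below all vector libraries, by a narrow margin in R58Q. The change was -0.26 ± 0.064 (adjusted p = 0.0397) in S136X and -0.28 ± 0.081 (adjusted p = 0.0431) in R58Q. CORO1B lost its call in S136X whichever of the 6 libraries was left out (adjusted p 0.0594 to 0.152). CORO1B lost its call in R58Q without any 1 of vector replicates 1, 2 and 3 and R58Q replicates 1 and 3 (adjusted p 0.0652 to 0.135). For CORO1B, 24.3% of its exon length is shared with PTPRCAP on the same strand, and 27.8% of its 31-base words occur there. PTPRCAP had 0 counts in every library. How reads of the shared stretch were assigned was not measured, so the count of CORO1B is uncertain. PFN1 (1280 to 1512 CPM over the 9 libraries), CFL1 (769 to 885), TMSB10 (536 to 636), CORO1A (396 to 472), CORO1C (93.3 to 154) and CAPG, a capping protein (12.1 to 17.8), had fitted log2 changes between -0.28 and 0.13 against vector, of which that of CFL1 in S136X turned negative with total counts only. With the replicate block CORO1C fell in both (-0.21, adjusted p = 0.0148 in S136X and -0.29, adjusted p = 0.00374 in R58Q), and TMSB10 fell in S136X (-0.16, adjusted p = 0.0442).

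All 7 Arp2/3 genes had fitted changes above 0 against vector in both mutants, except that ARPC1B and ARPC3 were below 0 in S136X with total counts only, as was ARPC1B without S136X replicate 3 and ARPC3 without S136X replicate 2, and ACTR2 was below 0 in R58Q with upper-quartile factors. Of the 7, 1 rose in S136X and 2 in R58Q, where 6.03% and 12.3% of all genes rose. ARPC2, which encodes a core subunit of the complex, had 314, 352 and 356 CPM with vector, 416, 456 and 453 with S136X and 419, 460.5 and 482 with R58Q. The vector libraries were the lowest 3, and the mutants overlapped. ARPC2 rose by 0.37 ± 0.073 (adjusted p = 0.0158) in S136X and 0.41 ± 0.078 (adjusted p = 0.00952) in R58Q. The call of ARPC2 in S136X was lost without vector replicate 2 (adjusted p = 0.0605) and without S136X replicate 3 (adjusted p = 0.0558).

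ARPC5, the smallest subunit, had 140.2, 141 and 136.1 CPM with vector, 141, 162 and 139 with S136X and 181, 173 and 185 with R58Q. Its R58Q libraries lay above all the others, and those of S136X overlapped the vector. It rose by 0.37 ± 0.055 (adjusted p = 0.00343) in R58Q, and in S136X the value was 0.09 ± 0.07 (adjusted p = 0.481). The difference between the mutants, 0.28 (95% interval 0.13 to 0.42, adjusted p = 0.177), passed only with the replicate block (0.28, adjusted p = 0.000947). ARPC5L, the alternative form of that subunit, had 82.0, 83.1 and 76.0 CPM with vector, 94.4, 84.2 and 96.7 with S136X and 91.1, 80.9 and 86.2 with R58Q, with 0.19 ± 0.071 (adjusted p = 0.129) in S136X and 0.10 ± 0.067 (adjusted p = 0.334) in R58Q. It passed in neither mutant.

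ARPC3, another subunit, had 105, 120.2 and 109.6 CPM with vector, 106, 127 and 114 with S136X and 126, 147 and 126 with R58Q. Its R58Q libraries were above all vector libraries, while S136X and vector overlapped. In R58Q its value of 0.25 ± 0.082 (adjusted p = 0.06) missed the threshold, and it passed with the block (0.25, adjusted p = 0.00431), DESeq2 (adjusted p = 0.0287), no filter (adjusted p = 0.0208) and at least 10 counts in every library (adjusted p = 0.0498). The actin-related core proteins ACTR2 (678 to 803 CPM) and ACTR3 (466 to 545 CPM) had fitted changes of 0.06 to 0.12, and ARPC1B (8.81 to 11.5 CPM) of 0.04 and 0.13. Most of ARPC1B's sequence, 72.6% of its 31-base words, also occurs in other genes, mainly a readthrough gene with 0 to 6 counts, so its count is given as uncertain, though ambiguous reads were not counted.

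None of the 3 activators of the complex passed in a comparison with vector as tested here, though 1 did under other settings. WASF2, which encodes a WAVE protein, had 254, 254 and 252 CPM with vector, 245, 263 and 236 with S136X and 219.6, 238 and 229 with R58Q. The R58Q libraries were all below the vector libraries, and S136X lay on both sides of them. The values were -0.03 ± 0.061 (adjusted p = 0.776) in S136X and -0.15 ± 0.056 (adjusted p = 0.0969) in R58Q, and the latter passed with the block (-0.15, adjusted p = 0.0451), upper-quartile factors (-0.21, adjusted p = 0.0293) and total counts only (-0.20, adjusted p = 0.0431). WAS, the blood-cell activator mutated in Wiskott-Aldrich syndrome (61.6 to 83.9 CPM), and its partner WIPF1 (129 to 191 CPM) overlapped between all groups. WAS was lower in R58Q than in S136X with the block (-0.19, adjusted p = 0.00784).

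VASP and FSCN1 had the highest folds of the genes that rose in R58Q, within error of each other. VASP encodes a protein that sits at filament ends and protects their growth from capping. VASP (ENSG00000125753.14, chr19:45506579-45526983, plus strand) stood at 118, 115 and 114 CPM with vector, 170.1, 194 and 186 with S136X and 261, 241 and 261 with R58Q. The groups were fully separate, in the order vector, S136X, R58Q. VASP rose 1.58-fold in S136X (0.66 ± 0.065, adjusted p = 0.000829) and 2.19-fold in R58Q (1.13 ± 0.058, adjusted p = 3.42e-05). It was 1.38-fold higher in R58Q than in S136X (0.46 ± 0.07, adjusted p = 0.0411), and this held with the replicate block (0.46, adjusted p = 2.16e-06). VASP lost its call between the mutants whichever of the 6 libraries was left out (adjusted p 0.0587 to 0.202).

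The other 3 genes of filament elongation did not share this size of change. DIAPH1, a formin activated by RHOA, had 295, 294 and 281 CPM with vector, 334, 329 and 314 with S136X and 352, 329 and 333 with R58Q. All mutant libraries lay above all vector libraries. It rose by 0.22 ± 0.058 (adjusted p = 0.0322) in R58Q, and its value in S136X, 0.17 ± 0.058 (adjusted p = 0.105), passed only with the block (0.17, adjusted p = 0.021). DIAPH1 lost its call in R58Q without any 1 of vector replicates 2 and 3 and R58Q replicates 1 and 3 (adjusted p 0.0769 to 0.11). It was also lost with upper-quartile factors (0.15, adjusted p = 0.0871) and total counts only (0.16, adjusted p = 0.0536).

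EVL and ENAH are the family members of VASP. EVL had 154, 166 and 172 CPM with vector, 134, 151 and 143 with S136X and 133, 152 and 133 with R58Q, with every mutant library below every vector library. Its values of -0.20 ± 0.069 (adjusted p = 0.106) in S136X and -0.24 ± 0.074 (adjusted p = 0.0552) in R58Q did not pass, but both did with the block (-0.20, adjusted p = 0.0148 and -0.24, adjusted p = 0.0121). In R58Q EVL also passed with DESeq2, both other scalings and all 9 libraries in one fit (adjusted p 0.024 to 0.0453). ENAH had 54.6, 49.8 and 40.6 CPM with vector, 64.1, 38.9 and 36.3 with S136X and 48.3, 32.2 and 33.9 with R58Q, and its groups overlapped. It fell in R58Q only in the blocked fit (-0.35, adjusted p = 0.0115).

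**Figure D3:**
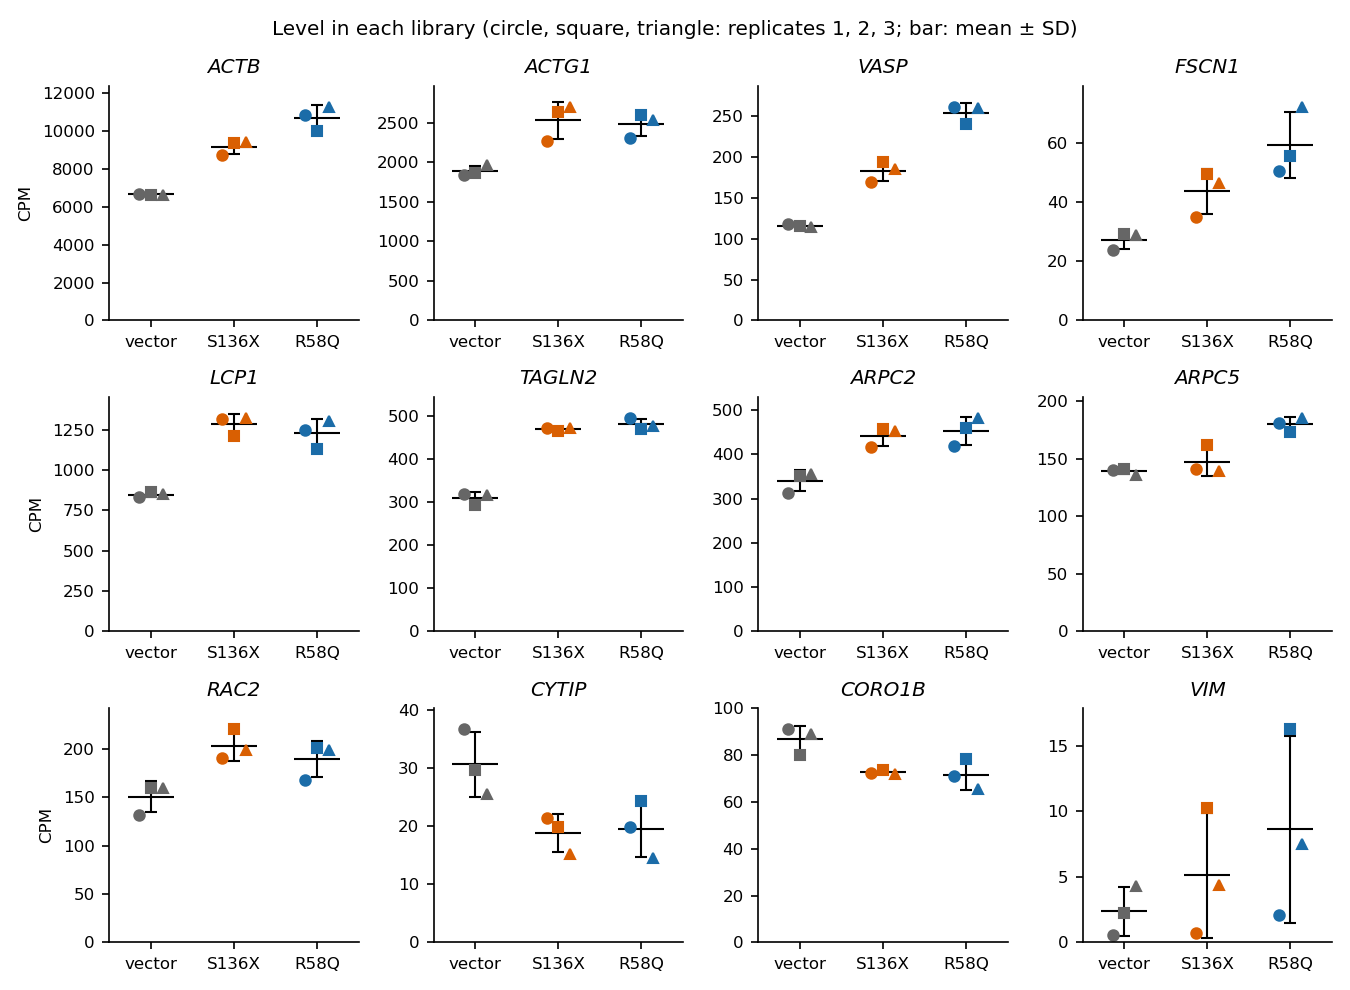
CPM in each library for 12 of the genes, with replicate 1 as a circle, 2 as a square and 3 as a triangle, and the mean ± SD as bars, on axes that start at 0. VASP and ACTB separate all 3 groups, ARPC5 separates R58Q from the other libraries, and VIM varies more within groups than between them.

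Of the 7 cross-linking and bundling genes, 3 were higher in S136X, beside 6.03% of all genes. In R58Q 3 were higher and 1 lower, beside 12.3% and 8.76% of all genes. FSCN1 (chr7:5592816-5606655, plus strand) encodes fascin, which packs filaments into tight bundles, and stood at 23.9, 29.2 and 29.1 CPM with vector, 35.2, 49.6 and 46.6 with S136X and 50.6, 55.6 and 72.2 with R58Q. The groups did not overlap, with R58Q highest. FSCN1 rose 1.60-fold in S136X (0.68 ± 0.14, adjusted p = 0.0171) and 2.17-fold in R58Q (1.12 ± 0.14, adjusted p = 0.00165). Between the mutants the value was 0.43 (95% interval 0.10 to 0.76, adjusted p = 0.393), which passed only with the block (0.43, adjusted p = 0.000173). The call of FSCN1 in S136X was lost without vector replicate 2 (adjusted p = 0.0634) and without S136X replicate 3 (adjusted p = 0.063).

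LCP1, also called L-plastin, is the bundling protein of blood cells and the most abundant of this group per exon length. At chr13:46125920-46211871 on the minus strand, it had 831, 864 and 849 CPM with vector, 1318, 1208 and 1319.8 with S136X and 1247, 1130.4 and 1300.4 with R58Q. Every mutant library was above every vector library, and the mutants overlapped. LCP1 rose 1.51-fold in S136X (0.60 ± 0.066, adjusted p = 0.00153) and 1.44-fold in R58Q (0.53 ± 0.073, adjusted p = 0.00249), and the mutants differed by -0.07 (95% interval -0.22 to 0.07, adjusted p = 0.825).

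TAGLN2, or transgelin-2, which stabilizes filaments, had 319.6, 293 and 316 CPM with vector, 473, 465 and 472 with S136X and 495, 469 and 478 with R58Q. Again the vector libraries were lowest and the mutants overlapped. TAGLN2 (chr1:159918107-159925507, minus strand) rose 1.52-fold in S136X (0.60 ± 0.06, adjusted p = 0.000879) and 1.55-fold in R58Q (0.63 ± 0.061, adjusted p = 0.000504), with a difference between mutants of 0.02 (95% interval -0.08 to 0.12, adjusted p = 0.944). Pseudogenes hold 15.2% of its 31-base words and 13.1% of those of FSCN1, but 0% of those of LCP1 and VASP.

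FLNA encodes filamin A, which joins crossing filaments into networks. Its libraries had 604, 544 and 597 CPM with vector, 519, 523 and 518 with S136X and 514, 476 and 482 with R58Q, the vector libraries being highest. FLNA fell by 0.25 ± 0.068 (adjusted p = 0.0355) in R58Q, and its value in S136X, -0.16 ± 0.064 (adjusted p = 0.144), passed only with the block (-0.16, adjusted p = 0.0413). FLNA lost its call in R58Q whichever of the 6 libraries was left out (adjusted p 0.0596 to 0.114).

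The remaining cross-linkers did not pass. ACTN4 (568 to 673 CPM) had 0.15 ± 0.065 (adjusted p = 0.185) in S136X and 0.08 ± 0.069 (adjusted p = 0.423) in R58Q, ACTN1 (41.5 to 75.5 CPM) had 0.35 ± 0.16 (adjusted p = 0.217) and 0.28 ± 0.15 (adjusted p = 0.216), and LSP1, a leukocyte protein that binds filaments (288 to 369 CPM), had -0.20 ± 0.072 (adjusted p = 0.123) and -0.07 ± 0.072 (adjusted p = 0.528). With the block ACTN1 rose in both (0.34, adjusted p = 0.00283 in S136X, where it also passed with no filter, and 0.27, adjusted p = 0.00422 in R58Q), ACTN4 rose in S136X (0.15, adjusted p = 0.0411), and LSP1 fell in S136X (-0.19, adjusted p = 0.033).

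Of the 4 genes for membrane linkage, 1 rose in R58Q, where 12.3% of all genes rose, and none passed in S136X. MARCKS, which binds actin and membrane lipids and lets go of the membrane when phosphorylated by protein kinase C, had 241, 234 and 205 CPM with vector, 240.1, 262 and 186 with S136X and 281, 285 and 283 with R58Q. The R58Q libraries lay within a narrow band above all others, and the S136X libraries spanned the vector range. MARCKS rose by 0.32 ± 0.071 (adjusted p = 0.0168) in R58Q, with a value of 0.02 ± 0.12 (adjusted p = 0.939) in S136X that turned negative with upper-quartile factors and with total counts only. The call of MARCKS in R58Q was lost without vector replicate 2 (adjusted p = 0.0614) and without R58Q replicate 3 (adjusted p = 0.0536). It was also lost with all 9 libraries in one fit (0.32, adjusted p = 0.0631). The difference between the mutants was 0.29 (95% interval 0.07 to 0.51, adjusted p = 0.384) and passed only with the block (0.31, adjusted p = 0.00203).

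EZR, which encodes ezrin, had 409.6, 432 and 454 CPM with vector, 345, 435 and 404 with S136X and 318, 389 and 377 with R58Q. All R58Q libraries were below all vector libraries, and S136X overlapped both. Its values were -0.13 ± 0.089 (adjusted p = 0.391) in S136X and -0.26 ± 0.087 (adjusted p = 0.0667) in R58Q, the latter past the threshold with the block (-0.26, adjusted p = 0.00624), with DESeq2, with no filter and with both other scalings. MSN, which encodes moesin (435 to 551 CPM), and MARCKSL1 (429 to 523 CPM) overlapped between groups, with fitted changes between -0.13 and 0.02, that of MSN in S136X turning negative with both other scalings.

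RAC2, the blood-cell Rac, rose in each mutant. It had 132, 159 and 159.9 CPM with vector, 190.3, 220.1 and 199 with S136X and 168, 201 and 199 with R58Q. The mutant libraries were all above the vector libraries, but the lowest R58Q library was close to the highest vector library. RAC2 rose by 0.44 ± 0.09 (adjusted p = 0.0198) in S136X and 0.33 ± 0.099 (adjusted p = 0.0476) in R58Q. RAC2 lost its call in S136X without any 1 of vector replicate 2 and S136X replicates 2 and 3 (adjusted p 0.0526 to 0.0592). RAC2 lost its call in R58Q without any 1 of vector replicates 1, 2 and 3 and R58Q replicates 2 and 3 (adjusted p 0.0743 to 0.135). The latter was also lost with upper-quartile factors (0.27, adjusted p = 0.0914) and total counts only (0.27, adjusted p = 0.105). RAC1 (249.8 to 357 CPM), CDC42 (130 to 155 CPM) and RHOA (603 to 708 CPM) overlapped between vector and mutants. Their fitted changes were 0.16 and 0.08, 0.02 and 0.06, and 0.01 and 0.06, in S136X and R58Q respectively, and did not pass, and those of CDC42 and RHOA turned negative with upper-quartile factors and, in S136X, with total counts only. RAC1 passed in S136X with the block (0.17, adjusted p = 0.0398). The 31-base words of CDC42 are shared with other genes at 89.2% and those of RAC1 at 20.1%, against 0.2% for RAC2.

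CYTIP, a scaffold that binds cytohesins and lowers integrin adhesion in leukocytes, was the gene of the 40 that fell by at least 1.5-fold in each mutant. It stood at 36.7, 29.7 and 25.5 CPM with vector, 21.4, 19.9 and 15.2 with S136X and 19.8, 24.3 and 14.5 with R58Q. All mutant libraries were below all vector libraries, although the highest R58Q library came close to the lowest vector library. CYTIP (chr2:157414619-157488961, minus strand) fell by 0.70 ± 0.16 (adjusted p = 0.0274) in S136X, 1.62-fold lower, and by 0.65 ± 0.19 (adjusted p = 0.0442) in R58Q, 1.57-fold lower. The mutants differed by 0.04 (95% interval -0.34 to 0.42, adjusted p = 0.978). CYTIP lost its call in S136X without any 1 of vector replicates 1 and 2 and S136X replicates 2 and 3 (adjusted p 0.0593 to 0.0928). CYTIP lost its call in R58Q without any 1 of vector replicates 1, 2 and 3 and R58Q replicates 1 and 3 (adjusted p 0.0512 to 0.117).

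VIM, the intermediate filament gene of mesenchymal and many blood cells, had a low level in this line, with 20 to 487 counts per library. It had 0.593, 2.23 and 4.32 CPM with vector, 0.751, 10.2 and 4.42 with S136X and 2.09, 16.3 and 7.52 with R58Q. Within every group the library numbered 1 was the lowest, and the groups overlapped. The fitted values were wide, 1.11 ± 0.82 (adjusted p = 0.428) in S136X and 1.85 ± 0.76 (adjusted p = 0.118) in R58Q, and the latter passed with the block (1.79, adjusted p = 0.00376) and with no filter (1.87, adjusted p = 0.00138), as did, with the block, the difference between the mutants (0.77, adjusted p = 0.000127).

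The shared replicate numbers touched several other genes in the same way. For ACTN1 the library numbered 1 was the highest of each group, at 55.9 CPM for vector, 75.5 for S136X and 69.0 for R58Q, while the other 6 libraries lay between 41.5 and 52.5. ENAH likewise was highest in the number 1 libraries, and WIPF1 was lowest in them, at 149.6, 131 and 129 CPM against 165 to 191 in the rest. CORO1C was highest in the number 1 library of each group, with 154, 136.04 and 123 CPM with vector, 137, 123 and 100.02 with S136X and 130.2, 117 and 93.3 with R58Q. These were among the genes whose calls changed with the replicate block, except WIPF1.

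**Figure D4:**
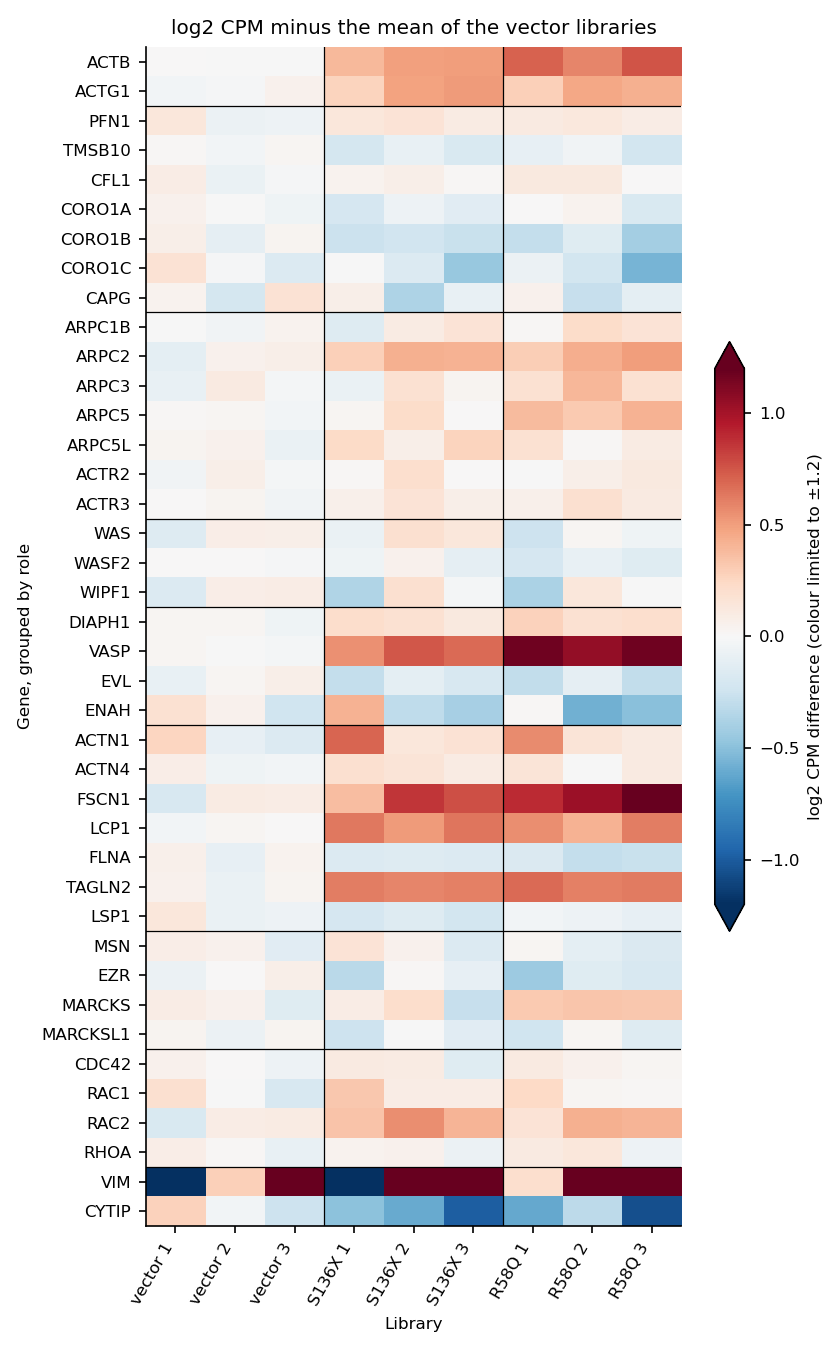
Log2 CPM of each of the 40 genes in each library minus the mean of the vector libraries, grouped by role, with red for higher and blue for lower values. VASP, FSCN1, LCP1, TAGLN2 and the actins are red across all mutant libraries, CYTIP is blue, and VIM and ACTN1 change with the replicate number inside each group.

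Promoter sequences are shown for genes that changed by at least 1.5-fold in each mutant, 2 that rose and 1 that fell, as the 250 bases before the annotated start (RefSeq, GRCh38.p14, in gene orientation). RefSeq entries for promoters were matched for 33 of the 40 genes, with 53 promoters, and not for ACTB, ARPC1B, WASF2, FSCN1, LSP1, RAC1 and RAC2. They were searched on both strands for the kB motif bound by NF-kB, for the CArG box bound by serum response factor, and for the AP-1 site TGANTCA. Capitals mark matches to the kB motif in VASP and in the first TAGLN2 promoter, and a match to the AP-1 site in the second. The promoters lie at chr19:45507229-45507478 (plus strand) for VASP, at chr1:159925508-159925757 and chr1:159924596-159924845 (minus strand) for TAGLN2, whose remaining annotated start holds none of the 3 motifs and is not printed, and at chr2:157444090-157444339 (minus strand) for CYTIP, which holds none of the 3 motifs in this window.
VASP: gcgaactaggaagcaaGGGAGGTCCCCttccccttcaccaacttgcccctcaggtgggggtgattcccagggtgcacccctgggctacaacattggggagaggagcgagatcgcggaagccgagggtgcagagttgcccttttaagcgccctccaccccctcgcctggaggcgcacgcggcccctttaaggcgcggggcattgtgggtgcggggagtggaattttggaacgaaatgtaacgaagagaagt
TAGLN2, first start: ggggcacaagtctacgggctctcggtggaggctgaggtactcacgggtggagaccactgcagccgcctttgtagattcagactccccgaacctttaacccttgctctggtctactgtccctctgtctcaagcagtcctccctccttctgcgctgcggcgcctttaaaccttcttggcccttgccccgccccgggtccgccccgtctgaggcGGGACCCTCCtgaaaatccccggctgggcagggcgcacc
TAGLN2, second start: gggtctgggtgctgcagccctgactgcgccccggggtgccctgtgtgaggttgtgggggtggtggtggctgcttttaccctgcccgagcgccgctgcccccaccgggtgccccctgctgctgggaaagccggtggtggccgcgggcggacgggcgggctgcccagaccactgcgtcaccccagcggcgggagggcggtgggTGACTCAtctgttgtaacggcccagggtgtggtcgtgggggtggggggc
CYTIP: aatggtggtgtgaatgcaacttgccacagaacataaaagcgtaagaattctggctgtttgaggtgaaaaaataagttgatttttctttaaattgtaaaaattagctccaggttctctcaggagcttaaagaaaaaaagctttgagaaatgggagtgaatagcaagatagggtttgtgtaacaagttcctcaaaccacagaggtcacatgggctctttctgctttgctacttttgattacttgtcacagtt

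The kB motif was found in 6 of the 53 promoters (11.3%; ARPC5L, CAPG, CORO1B, EZR, TAGLN2 and VASP) and in 10% of all 35116 promoters of the same length. In VASP overlapping matches start at -234 and -233 from the annotated RefSeq start, and in TAGLN2 a match starts at -39 from the first start. The printed windows precede starts of RefSeq transcripts. Those of VASP and CYTIP, and the second of TAGLN2, lie inside the gene bounds given above. The genes with a match include VASP and TAGLN2, which rose, CORO1B, which fell, and CAPG, which did not pass. The CArG box was found in 3 of 53 (5.7%; ACTG1, ACTN1 and FLNA) against 1.2% of all promoters, and the AP-1 site in 4 of 53 (7.5%; ACTN4, CAPG, EZR and TAGLN2) against 6.6%. The median GC content of the 53 promoters was 68%, beside 58% for all promoters. A match is a stretch of letters and not a measured binding site.

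A wider list of 164 other actin and motility genes is set beside the 40. It was chosen with earlier results of these data known, so its counts beside the shares of all genes describe the list and test nothing about it. Of the 144 tested, 17 rose and 9 fell in S136X, and 26 rose and 21 fell in R58Q, while 2 of 145 were higher and 0 lower in R58Q than in S136X. Over all genes, 6.03% rose and 4.1% fell in S136X, and 12.3% rose and 8.76% fell in R58Q. Without vector replicate 2, 8 of the wider list rose and 0 fell in S136X, and 13 rose and 6 fell in R58Q. The shares of all genes there were 2.07% and 0.98% in S136X, and 5.47% and 2.91% in R58Q. Fewer than in the full comparison also fell in S136X without vector replicate 3 (3) or S136X replicate 3 (2). Of all genes, 2.0% and 1.36% fell in those fits, in that order. Fewer were also called in R58Q without vector replicate 3 (16 rose, 12 fell) or R58Q replicate 3 (15 rose, 8 fell). Of all genes, 6.82% rose and 4.18% fell in the former fit, and 7.37% rose and 3.78% fell in the latter. With the replicate block 31 rose and 30 fell in S136X, 36 rose and 38 fell in R58Q, and 19 were higher and 21 lower in R58Q than in S136X, where the shares of all genes were 12.9% and 11.8%, 18.2% and 17%, and 7.84% and 6.71%.

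The largest change in this wider list belonged to PLEK, which encodes pleckstrin, a protein kinase C substrate of platelets and leukocytes. It had 145, 190.5 and 173 CPM with vector, 568, 645 and 579.8 with S136X and 1109, 965 and 1119.9 with R58Q. The 3 groups were separate. PLEK rose 3.53-fold in S136X (1.82 ± 0.10, adjusted p = 5.32e-05) and 6.28-fold in R58Q (2.65 ± 0.11, adjusted p = 1.76e-05), and was higher in R58Q than in S136X (0.82 ± 0.081, adjusted p = 0.00912). The last call was lost without S136X replicate 3 (adjusted p = 0.122) or R58Q replicate 3 (adjusted p = 0.0563).

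TRIP10, an effector of CDC42 that bends membranes, had 35.7, 37.1 and 38.9 CPM with vector, 90.1, 82.7 and 95.1 with S136X and 149, 126 and 154 with R58Q. Its groups were separate too. The changes were 1.26 ± 0.073 (adjusted p = 5.32e-05) in S136X, 1.94 ± 0.087 (adjusted p = 1.87e-05) in R58Q and 0.67 ± 0.092 (adjusted p = 0.0282) between the mutants, the last of which was lost in 5 of the 6 fits with 1 library left out (adjusted p 0.0927 to 0.14) and kept without R58Q replicate 2 (adjusted p = 0.0118).

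RHOF, a GTPase of filopodia, had 91.7, 78.8 and 77.5 CPM with vector, 180.5, 175 and 164 with S136X and 232, 206 and 208 with R58Q, and rose by 1.07 ± 0.079 (adjusted p = 0.000233) and 1.38 ± 0.084 (adjusted p = 4.93e-05). FMNL3, a formin of leukocytes and other cells, had 53.9, 56.0 and 51.1, 96.3, 98.6 and 85.0 and 129.9, 118 and 115 CPM in the same order, and rose by 0.80 ± 0.074 (adjusted p = 0.000662) and 1.17 ± 0.068 (adjusted p = 4.71e-05). In both genes every R58Q library was above every S136X library, and every S136X library above every vector library, and the difference between the mutants missed the threshold. That difference was 0.31 (95% interval 0.18 to 0.43, adjusted p = 0.106) for RHOF and 0.37 (95% interval 0.22 to 0.51, adjusted p = 0.0987) for FMNL3. For RHOF it passed with the replicate block (adjusted p = 5.17e-05), DESeq2 (adjusted p = 0.0156) and no filter (adjusted p = 0.0442). For FMNL3 it passed with the block (adjusted p = 1.50e-05), DESeq2 (adjusted p = 0.00558), no filter (adjusted p = 0.0172) and all 9 libraries in one fit (adjusted p = 0.0411).

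The class I myosin MYO1C rose by 0.74 ± 0.059 (adjusted p = 0.000285) in S136X and 1.08 ± 0.062 (adjusted p = 4.56e-05) in R58Q, from a vector mean of 101 ± 5.06 CPM. The GTPase RHOB, from 9.87 ± 1.47 CPM, rose by 0.57 ± 0.13 (adjusted p = 0.03) and 1.14 ± 0.12 (adjusted p = 0.000598), and the Rac GTPase-activating protein ARHGAP25, from 122 ± 19.5 CPM, by 1.02 ± 0.12 (adjusted p = 0.00162) and 1.12 ± 0.12 (adjusted p = 0.000747). All mutant libraries of these 3 genes were above all vector libraries.

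Cortactin, CTTN, which stabilizes Arp2/3 branches, rose by 0.86 ± 0.19 (adjusted p = 0.0229) and 0.83 ± 0.16 (adjusted p = 0.00886) from 35.4 ± 4.62 CPM, and DOCK10, a guanine nucleotide exchange factor, by 0.65 ± 0.11 (adjusted p = 0.00962) and 0.49 ± 0.11 (adjusted p = 0.0189) from 125 ± 13.1 CPM. CYFIP1, a subunit of the WAVE complex, rose by 0.73 ± 0.14 (adjusted p = 0.0108) in R58Q, with 0.35 ± 0.15 (adjusted p = 0.184) in S136X. The genes that fell most were rare transcripts. The coronin CORO2B, at 4 to 39 counts per library, fell by 1.76 ± 0.38 (adjusted p = 0.0231) and 1.33 ± 0.34 (adjusted p = 0.0274), and the nucleator SPIRE2, at 9 to 48 counts, fell by 1.30 ± 0.36 (adjusted p = 0.0371) in R58Q, with -0.88 ± 0.41 (adjusted p = 0.206) in S136X. The calls of CORO2B were lost without vector replicate 2 (adjusted p = 0.0882 in S136X and 0.0844 in R58Q), vector replicate 3 or replicate 3 of the mutant, and that of SPIRE2 in R58Q in 5 of 6 fits with 1 library left out (adjusted p 0.0668 to 0.112). In S136X CTTN was lost without vector replicate 2 (adjusted p = 0.103), vector replicate 3 or S136X replicate 3, DOCK10 without vector replicate 2 (adjusted p = 0.059), and RHOB in 4 of 6 such fits (adjusted p 0.0683 to 0.125) and with total counts only (adjusted p = 0.0528). In R58Q DOCK10 was lost without vector replicate 2 (adjusted p = 0.0808) or R58Q replicate 3 (adjusted p = 0.0532), and CYFIP1 without vector replicate 2 (adjusted p = 0.0532).

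**Figure D5:**
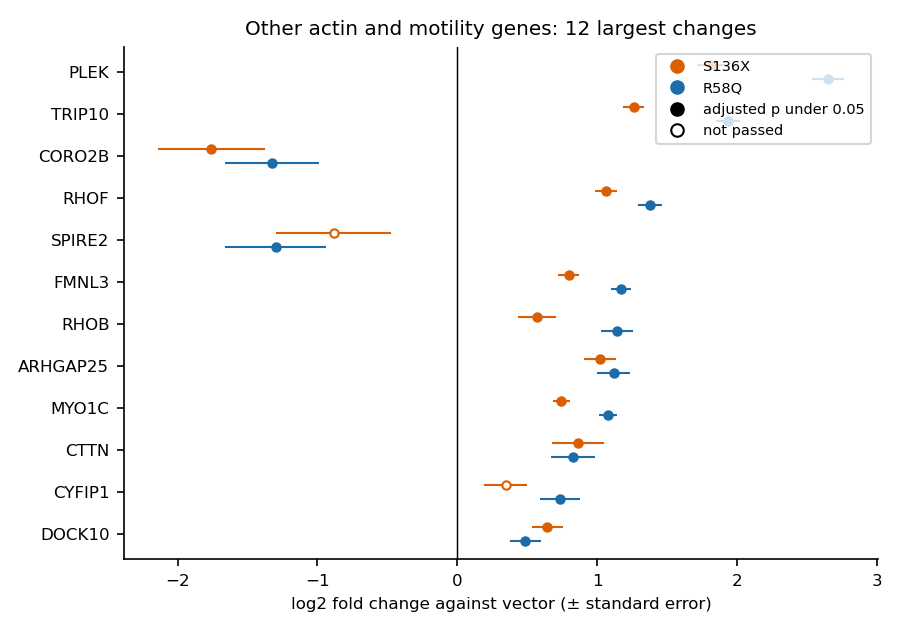
Log2 fold change against vector (point) with its standard error (bar) for the 12 genes of the wider list with the largest changes, in S136X (orange) and R58Q (blue), filled where the adjusted p was under 0.05. PLEK lies farthest right at 2.65 in R58Q, and CORO2B farthest left at -1.76 in S136X.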

How the data were processed

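RNA from 9 cultures of RIVA was poly(A)-selected (Nugen Universal Plus mRNA-Seq kit) and sequenced single-end over 2 runs that were combined. The table deposited by the authors holds, for every library, read counts by gene and a normalized signal, the same counts divided by a factor per library. The signal was not tested here. The submitters' processing notes name STAR, Picard, cutadapt and hg38, and the counting program, its strand setting and the annotation are not given in the sources used here. GENCODE release 29, which gave exon lengths, contains 96.3% of the identifiers. The dose label reads per mL in one place, as used here, and per µL in another.

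Testing used edgeR 4.0.16 in R 4.3.3, on the 6 libraries of a comparison after filterByExpr (a minimum count of 10 and a minimum total of 15), with TMM factors and the quasi-likelihood F test. P-values were adjusted by Benjamini-Hochberg over every gene tested, and 0.05 was the threshold, with 1.5-fold as an added requirement where stated. A standard error is the absolute log2 fold change over the square root of F, and 95% intervals span 1.96 SE. That normal quantile makes the intervals too narrow for a test on 6 libraries, and they are not adjusted for the number of genes. An interval that leaves out 0 is therefore not a call. All 40 genes passed the filter in each comparison. The paper's methods state no test across genes. Groups and replicate numbers come from the sample titles. The paper calls them biologic replicates, the labels do not say how they were cultured, and p-values measure the spread between these libraries. Replicate pairs differed by 7.82 to 24.3 times the counting noise (chi-square over its degrees of freedom). Same-numbered libraries of different groups deviated together (9 correlations of deviations, 0.143 to 0.626, median 0.425), so the number was also fitted as a block. For different numbers the 18 correlations ran from -0.459 to 0.169 (median -0.251), so the ranges overlapped. Deviations were taken from the mean of each group. Positive values for the same number therefore force lower values for different numbers, and that median is no separate evidence of pairing. The other settings tried were DESeq2 1.42.0 and limma-voom (limma 3.58.1) as tools, scaling by upper quartiles or by total counts, filters from none to 10 counts in all libraries, one fit of all 9 libraries, the omission of each library, and a threshold of 0.01.

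The 40 genes, the wider list and the markers were chosen with earlier results of these data known. Values in every library are given for genes that passed with 1.5-fold, both actins and 12 others with the smallest adjusted p. ARPC5L, ENAH and CORO1C were added after their values were seen. In the wider list, the 12 genes with the largest changes among those that passed are named. The steps were tested on simulated data. Counts for subgroups of the wider list are not reported here.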

Additional observations from a re-analysis of the deposited data

Results flagged for a closer look

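VASP, PLEK and TRIP10 were flagged because each differed between the mutants by a test of the difference itself. VASP was 0.46 (log2) higher in R58Q than in S136X, with an edgeR adjusted p of 0.0411 and all 3 R58Q libraries above all 3 S136X libraries. The call was lost whichever of the 6 libraries was left out (adjusted p 0.0587 to 0.202). With the replicate block its adjusted p was 2.16e-06. The column date that R58Q does not share with S136X cannot be told apart from the construct. PLEK, of the wider list, was 0.82 higher in R58Q (adjusted p = 0.00912 by edgeR), and TRIP10 0.67 higher (adjusted p = 0.0282 by edgeR), each with all 3 R58Q libraries above all 3 S136X libraries. The PLEK call was lost without S136X replicate 3 (edgeR adjusted p = 0.122) or R58Q replicate 3 (0.0563). TRIP10 kept its call only without R58Q replicate 2 (edgeR adjusted p = 0.0118), and lost it without any other library (0.0927 to 0.14).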

How the results depend on the processing

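With each library left out in turn, 3 to 8 of the 40 genes rose and 0 to 1 fell in S136X, 7 to 12 rose and 0 to 3 fell in R58Q, and 0 were higher in R58Q than in S136X. Of all genes, 2.07% to 5.78% rose and 0.98% to 4.01% fell in those S136X fits. In those of R58Q 5.47% to 11.6% rose and 2.91% to 7.36% fell. Between the mutants 0.00642% to 0.385% were higher and 0.0257% to 0.0899% lower. LCP1, TAGLN2 and VASP kept their calls against vector in all of these fits in both mutants, as did ACTB, ARPC2, ARPC5 and FSCN1 in R58Q. A change of at least 1.5-fold left 4 higher and 1 lower against vector in each mutant and 0 higher between the mutants. An adjusted p under 0.01 left 4 higher and 0 lower in S136X, 7 higher and 0 lower in R58Q and 0 higher between the mutants. The share of all genes at that limit is not given here. The genes lower in R58Q than in vector numbered 5 with DESeq2, 6 with upper-quartile factors and 6 with total counts only. In those fits 9.06%, 13% and 12.1% of all genes were lower. With the replicate block 7 were lower in S136X and 8 lower in R58Q, and 7 were higher and 3 lower between the mutants, and the block cost none of the 40 a call. In the wider list, leaving out each library gave 8 to 19 higher and 0 to 8 lower in S136X, 13 to 21 higher and 6 to 18 lower in R58Q, and 0 to 2 higher and 0 lower between the mutants. A change of at least 1.5-fold left 9 higher and 1 lower in S136X and 10 higher and 3 lower in R58Q, and an adjusted p under 0.01 left 9 and 1, 12 and 7, and 1 higher between the mutants. With the replicate block 31 were higher and 30 lower in S136X, 38 lower in R58Q, and 19 higher and 21 lower between the mutants. Those lower in S136X numbered 14 with DESeq2, upper-quartile factors or total counts, and 16 with no filter. The shares of all genes lower there were 5.32%, 5.24%, 5.99% and 3.51%, in that order. Between the mutants 6 were higher with DESeq2 or no filter and 5 with 9 libraries in one fit, and DESeq2 and that fit each gave 1 lower. Of all genes, 1.41%, 0.65% and 0.864% were higher in those fits. With DESeq2 0.691% of all genes were lower, and with 9 libraries in one fit 0.372%. MARCKS in S136X turned to -0.019 with upper-quartile factors and -0.036 with total counts only, and ranged from -0.075 to 0.16 with libraries left out. ARPC3 in S136X was -0.0043 with total counts only and ranged from -0.011 to 0.11, and WASF2 in S136X from -0.064 to 0.013. Between the mutants CYTIP ranged from -0.15 to 0.21 and ACTG1 from -0.11 to 0.015. None of these reversed values passed the test, and the cause of the changes was not tested. The low count of VIM and CORO2B limits what can be read from their folds.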
